A study of Homo sapiens with 8 samples.

Results

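The 10 genes described here encode factors that recognise the branch point or the 3′ splice site (the acceptor) of an intron, or that work beside SF3B1 at that site. They are U2AF1, U2AF2, SF1, PUF60, SUGP1, RBM17, HTATSF1, ZRSR2, GPATCH8 and CHERP, chosen by name for their known roles, out of 23596 genes with a value in these data. Their transcripts were found by the gene names in the deposited transcript lists and followed by transcript name through all libraries, together with assembled spliced transcripts that share their introns. Of the 10 genes, 8 carried their symbol in the lists. U2AF1 and SF1 carried only the name of their RefSeq transcripts and were named from a RefSeq table.

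The RNA came from K562, a human erythroleukaemia line, carrying a doxycycline-inducible SF3B1 transgene. The study set out to follow gene expression and splicing when normal or mutant SF3B1 is expressed. There were 4 groups of 2 libraries: K700E_induced (transgene SF3B1-K700E, 1 ug/ml doxycycline for 48 h), K700E_uninduced (the same transgene, no doxycycline), WT_induced (wild-type SF3B1 transgene, same doxycycline) and WT_uninduced (wild-type transgene, no doxycycline). All cells also keep their own SF3B1. Which promoter drives the transgene, and whether each line is a clone or a pool, is not stated in any source used here. Nothing in the labels says that replicates were separate cultures, so every p-value measures the spread between these libraries, which may be technical. Within a line the drug and the transgene cannot be told apart; WT_induced is the group given the same drug with normal SF3B1.

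An intron is recognised at its 3′ end by several proteins that bind side by side. SF1 holds the branch point, U2AF2 the pyrimidine-rich stretch after it and U2AF1 the AG at the acceptor, before SF1 gives way to the U2 small nuclear ribonucleoprotein, whose SF3B1 subunit clamps the branch helix. PUF60, RBM17, HTATSF1, SUGP1, GPATCH8 and CHERP, among them proteins with a U2AF homology motif or a G-patch, bind to or act around this complex. The K700E form of SF3B1, recurrent in myelodysplastic syndromes, is known for using acceptors upstream of the normal ones and for losing its contact with SUGP1.

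The values are FPKM, fragments per kilobase of transcript scaled to the mapped reads in the library, after a small scaling between libraries (factors 0.979 to 1.029). Read totals are not used here. The lists give a coverage per unit of FPKM of 3.29 to 4.77, and they hold 24926 to 45570 assembled transcripts per library. SF3B1 itself was at 28.97 and 39.4 FPKM in K700E_induced, 33.6 and 31.0 in K700E_uninduced, 36.9 and 27.2 in WT_induced and 38.1 and 31.7 in WT_uninduced. These values sum transgene and endogenous reads, the groups overlap, and "induced" therefore names the treatment and not a measured rise. All 10 erythroid markers were above 0 in all libraries, with a summed level of 6998 to 13606 FPKM in the 4 libraries of the K700E line and 6210 to 6836 in the 4 of the WT line. Of 8 markers of other cell types, CD14 and MS4A1 were at 0 throughout. The 8 summed to 40.4 and 19.9 FPKM in K700E_induced and to 35.6 to 55.6 in the other 6 libraries. Among them the monocytic marker LYZ was at 7.504 and 6.51 FPKM in K700E_induced and at 12.9 to 25.0 in the other 6, an order found in 3.58% of all genes. EPCAM, which reached the highest level of the 8, was at 21.2 and 11.8 FPKM in K700E_induced and at 8.24 to 40.2 in the other 6. COL1A1 was at 11.8 and 1.60 FPKM in K700E_induced and at 0.678 to 8.50 in the other 6. The part of these markers in the results below was not tested.

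A gene's level was the sum of FPKM over its transcripts. Cufflinks estimated how reads divide among overlapping transcripts, and it also assembled partial transcripts of its own, whose FPKM adds to the sum although they cover a fraction of the gene. The level is therefore given also as a length-weighted sum, in which each transcript counts by its length relative to the longest reference transcript of the gene. That measure was chosen after the data were seen. All 10 genes were above 0 in all 8 libraries by both measures.

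In the summed FPKM, a scale per length on which genes can be compared, SF1 was the most abundant with a mean of 118 FPKM over the 8 libraries, followed by U2AF2 (mean 93.4 FPKM) and U2AF1 (mean 79.3 FPKM). PUF60 had a mean of 59.2 and CHERP one of 49.5 FPKM. RBM17 (24.4), HTATSF1 (17.1), SUGP1 (15.5) and GPATCH8 (13.4) formed a lower tier of mean FPKM, and ZRSR2, the factor of the rare minor introns, was lowest at 3.73. Only GPATCH8 and ZRSR2 were neighbours in this order whose ranges over the libraries did not overlap. The order of the means was the same with the length-weighted sum, where the ranges of CHERP and RBM17 were separate as well.

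**Figure D1:**
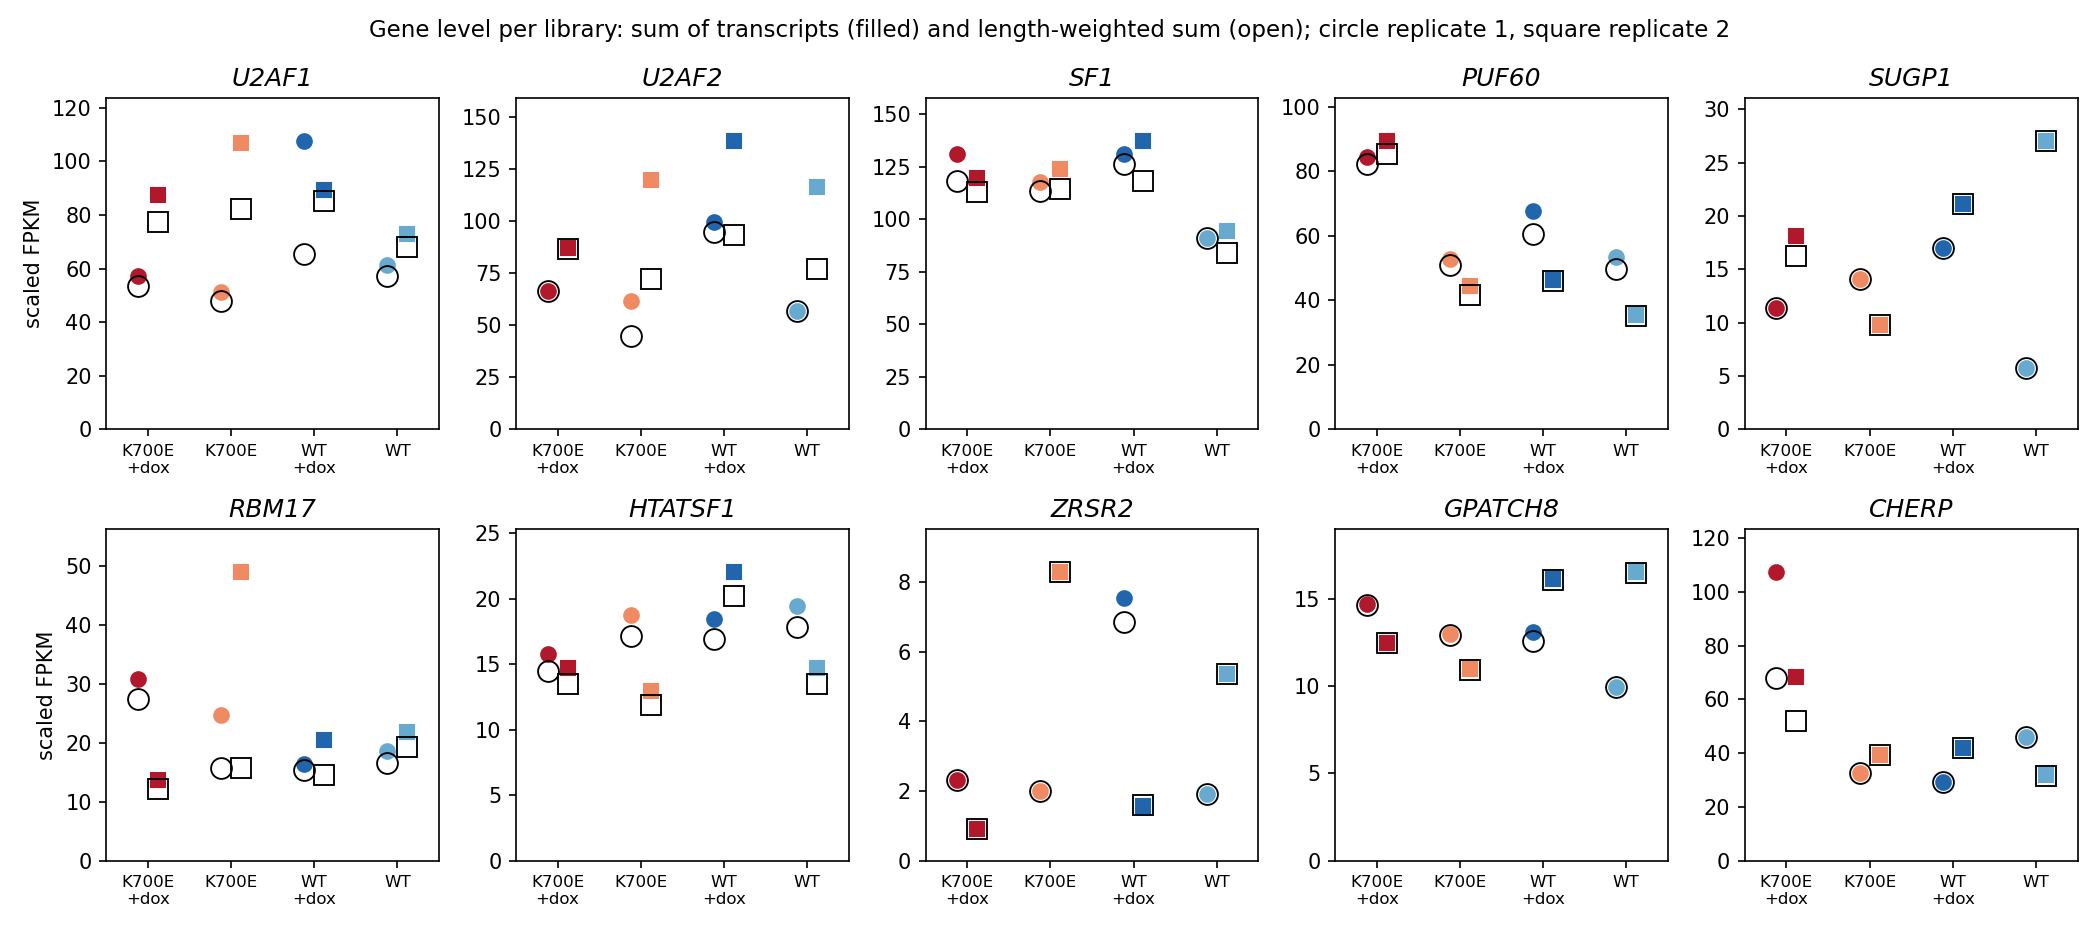
Level of each of the 10 genes in each library on the scaled FPKM axis, by group (+dox marks the doxycycline groups), with the sum over transcripts as filled symbols and the length-weighted sum as open symbols, circles for replicate 1 and squares for replicate 2. PUF60 and CHERP are highest in the 2 K700E_induced libraries by both measures, while the filled and open symbols of RBM17 and U2AF2 part in some libraries.

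SF1, the branch point binding protein, lies on the minus strand of chromosome 11 (64532076 to 64546316, hg19). It was at 131 and 119 FPKM in K700E_induced, 118 and 124 in K700E_uninduced, 131 and 137 in WT_induced and 90.8 and 94.4 in WT_uninduced. SF1 varied least of the 10, by 1.51 times between the lowest and the highest library, and both WT_uninduced libraries lay below the other 6. How many of all genes had that order was not counted, so it cannot be called unusual. In the WT line it had a mean of 134 ± 4.46 FPKM (SD, n = 2) with doxycycline and 92.6 ± 2.55 (SD, n = 2) without, a log2 fold change of 0.53 (SE 0.24). limma gave this an unadjusted p of 0.061 and an adjusted p of 0.996. In the K700E line the log2 fold change was 0.05 (SE 0.24).

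The division of SF1 among its forms moved more than its sum. Its main form NM_004630 was at 26.3 and 76.0 FPKM in K700E_induced, 69.6 and 70.4 in K700E_uninduced, 84.2 and 36.9 in WT_induced and 90.8 and 32.4 in WT_uninduced. It was above 0 in all libraries, and the replicates of 3 groups were far apart. NM_201995, which splices in a separate exon of 205 nt near the end of the gene, was at 61.1 and 23.3 FPKM in K700E_induced, 27.7 in WT_induced replicate 1 and listed at 0 in the other 5 libraries. limma's adjusted p for its share on K700E induction was 0.899. Both choices made from the donor at 64534372 are shown because the acceptor test of SF1 compares them, with the first bases after the junction in capitals.
SF1 junction to the exon at 64533423-64533627: tgccatggcagcaaaATACGACGACTACCA
SF1 junction past it, to 64532990: tgccatggcagcaaaGATCCCTCCCCGCGG
The junction to 64532990 took 18.3% and 16.9% of the FPKM from that donor in K700E_induced, 19.8% and 43.0% in K700E_uninduced, 0% and 43.9% in WT_induced and 0% and 50.7% in WT_uninduced. K700E_induced lay inside the range of the other groups. The junction to 64533627 is not particular to NM_201995 and its 205 nt exon. It took 100% in WT_uninduced replicate 1, where NM_201995 was listed at 0 and NM_004630 was the whole of SF1. The junction pair therefore does not measure inclusion against skipping of that exon.

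U2AF2, the large U2AF subunit that binds the pyrimidine tract, lies on the plus strand of chromosome 19 (56165416 to 56186082). It was at 66.6 and 87.0 FPKM in K700E_induced, 61.6 and 120 in K700E_uninduced, 99.9 and 139 in WT_induced and 57.0 and 117 in WT_uninduced. Replicates of a group were as far apart as 57.0 and 117 FPKM, and the groups overlapped except that K700E_induced lay below WT_induced. The log2 fold change was -0.18 (SE 0.46) on K700E induction and 0.53 (SE 0.46) on WT induction. The first had the opposite sign with the length-weighted sum (0.41) and with reference transcripts alone (1.06).

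Assembled forms held between 22.5% and 65.0% of U2AF2 in 5 libraries and none of it in the K700E_induced libraries and WT_uninduced replicate 1. The reference form NM_001012478 was at 66.6 and 87.0 FPKM in K700E_induced, 21.6 and 32.5 in K700E_uninduced, 52.9 and 77.6 in WT_induced and 57.0 and 50.97 in WT_uninduced. It was the whole of the gene in both K700E_induced libraries and in WT_uninduced replicate 1. limma's adjusted p for its share on K700E induction was 0.899. An assembled form with 2 introns at the 3′ end of the gene was the only one of the 24 assembled forms of the 10 genes found in more than 1 library. Its level was 13.2 and 59.5 FPKM in K700E_uninduced and 65.6 in WT_uninduced replicate 2.

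One exon of U2AF2 has alternative donors and ends 12 nt later in NM_007279 than in NM_001012478, a change that keeps the reading frame. The long exon is printed because it is where both reference forms differ, with the bases that the long form alone keeps in capitals.
U2AF2 exon, chr19:56180449-56180547, plus strand: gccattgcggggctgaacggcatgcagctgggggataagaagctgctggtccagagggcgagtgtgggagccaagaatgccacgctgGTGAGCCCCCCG
The long end made up 46.4% of the exon's FPKM in K700E_uninduced replicate 2 and 47.1% in WT_induced replicate 1, and it was listed at 0 in the other 6 libraries. Both K700E_induced libraries used the short end alone.

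U2AF1, the small U2AF subunit that reads the acceptor AG, lies on the minus strand of chromosome 21 (44513066 to 44527688). It was at 57.4 and 87.5 FPKM in K700E_induced, 51.4 and 107 in K700E_uninduced, 108 and 89.5 in WT_induced and 61.4 and 72.8 in WT_uninduced. Both WT_induced libraries lay above both WT_uninduced ones, and above both K700E_induced ones, while the groups of the K700E line overlapped. The log2 fold change was -0.07 (SE 0.41) on K700E induction and 0.55 (SE 0.41) on WT induction. With the length-weighted sum the first was 0.04 and the WT_induced libraries (65.4 and 85.1 FPKM) no longer stood clear of WT_uninduced (57.4 and 68.0).

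U2AF1 has a pair of alternative exons of equal length that encode different versions of part of the protein. NM_006758 holds the downstream exon, NM_001025203 the upstream one, and NM_001025204 holds both. Both exons are printed because the use of this pair, with assembled forms counted, separated the K700E_induced libraries from the rest. They are 67 nt long and differ at 23 positions (identity 65.7%), shown in capitals.
U2AF1 downstream exon, chr21:44520563-44520629, minus strand: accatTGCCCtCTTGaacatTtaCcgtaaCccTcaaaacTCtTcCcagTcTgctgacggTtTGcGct
U2AF1 upstream exon, chr21:44521476-44521542, minus strand: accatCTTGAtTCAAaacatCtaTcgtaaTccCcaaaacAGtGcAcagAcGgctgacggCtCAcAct
From the common donor at 44524425, the junction to the downstream exon took 82.8% and 77.1% of the FPKM in K700E_induced, 72.4% and 44.0% in K700E_uninduced, 67.7% and 47.5% in WT_induced and 75.7% and 52.8% in WT_uninduced. Both K700E_induced libraries were above the other 6, of which the nearest was WT_uninduced replicate 1 at 75.7%. A form that holds both exons counts here for the upstream junction. Among forms that span the downstream exon, it was included at 82.8% and 100% in K700E_induced and at 72.4% and 71.9% in K700E_uninduced. The values were 67.7% and 72.4% in WT_induced and 75.7% and 52.8% in WT_uninduced.

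The junction to the upstream exon of U2AF1 mirrored this, with 17.2% and 22.9% in K700E_induced, 27.6% and 38.9% in K700E_uninduced, 32.3% and 52.5% in WT_induced and 24.3% and 47.2% in WT_uninduced. On the log2 ratio scale the downstream junction differed by 1.46 (SE 2.53) on K700E induction and by -0.43 (SE 2.53) on WT induction, and limma's adjusted p was 1 for both. In 5 of the 8 libraries reference forms alone decide these shares; WT_induced replicate 1, K700E_uninduced replicate 2 and K700E_induced replicate 2 rest in part on assembled forms. Such forms held 67.7%, 56.0% and 22.9% of U2AF1 there. Without assembled forms K700E_induced no longer stands apart from the rest. In K700E_uninduced replicate 2 NM_006758 (47.1 FPKM) was the only reference form above 0, as it was in K700E_induced replicate 2. The deposited interval of the main U2AF1 transcripts had a half-width of 7.10% to 16.7% of the value, which covers the estimate in that library and not the spread between libraries.

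PUF60, a relative of U2AF2 that binds uridine-rich tracts and helps weak acceptors, lies on the minus strand of chromosome 8 (144898514 to 144911556). It was at 84.5 and 89.4 FPKM in K700E_induced, 52.7 and 44.5 in K700E_uninduced, 67.8 and 46.3 in WT_induced and 53.3 and 35.4 in WT_uninduced. The K700E_induced libraries were above all others. Their mean was 87.0 ± 3.41 FPKM (SD, n = 2) against 48.6 ± 5.81 (SD, n = 2) in K700E_uninduced, a log2 fold change of 0.84 (SE 0.35). limma gave an unadjusted p of 0.043 and an adjusted p of 1, so PUF60 did not pass.

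Assembled forms held 44.8% of PUF60 in WT_induced replicate 1 and none of it in the other 7 libraries. The length-weighted sum gave 82.2 and 85.3 FPKM in K700E_induced with a log2 fold change of 0.85 (SE 0.29) on K700E induction. By that measure limma's unadjusted p was 0.021 and its adjusted p 0.984. With the plain sum, leaving out each library in turn gave 0.72 to 0.96. On WT induction the log2 fold change was 0.36 (SE 0.35), or -0.06 with reference transcripts alone, and the interaction of line and induction was 0.47 (SE 0.49), or 0.90 with reference transcripts alone.

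No form of PUF60 was above 0 in more than 4 libraries. NM_014281 was at 44.6 FPKM in K700E_induced replicate 1, 46.8 in K700E_uninduced replicate 1 and 25.5 in WT_induced replicate 1, and listed at 0 in the other 5 libraries. NM_001271096, which starts an exon 3 nt further downstream than NM_014281, was at 13.2 and 49.3 FPKM in K700E_induced and listed at 0 in the other 6 libraries. Its acceptor at 144906566 thus took 15.7% and 55.2% of the FPKM from its donor in K700E_induced and none elsewhere. limma's adjusted p on K700E induction was 0.899 for the share of the transcript and 0.937 for the acceptor, with an unadjusted p of 0.020 and 0.029. Both values describe the same form and are not separate evidence. Its mean share over the other 6 libraries was 0, so it entered these tests through the K700E_induced libraries alone.

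The acceptor 3 nt upstream, at 144906569, was used in K700E_induced replicate 1 but not in replicate 2, where the paired site took all of the FPKM of the tandem. In K700E_uninduced replicate 2 and WT_uninduced replicate 1 neither of these tandem sites was used. A cassette exon of PUF60 of 51 nt (144902836 to 144902886) was included at 31.6% and 44.8% in K700E_induced, 11.2% and 72.5% in K700E_uninduced, 0% and 100% in WT_induced and 42.3% and 100% in WT_uninduced. Both K700E_induced values lay inside the range of the other libraries, and the replicates of WT_induced were at the ends of that range.

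ZRSR2, a relative of U2AF1 needed at the acceptors of minor introns, lies on the plus strand of chromosome X (15808574 to 15841382). It was at 2.30 and 0.891 FPKM in K700E_induced, 1.99 and 8.27 in K700E_uninduced, 7.55 and 1.58 in WT_induced and 1.90 and 5.35 in WT_uninduced. Replicates of a group were up to several times apart, and the whole range of 9.29 times was the widest of the 10 genes. The log2 fold change on K700E induction was -1.24 (SE 1.08). Coverage of the main ZRSR2 transcript was 3.61 to 30.3, and its deposited interval had a half-width of 12.5% to 35.9%. In both WT_induced libraries all of ZRSR2 was given to an assembled form. ZRSR1, a copy close in sequence, had no value, and no source used here gives how reads shared by both copies were divided.

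HTATSF1, a U2 component that contacts SF3B1 through a U2AF homology motif, lies on the plus strand of chromosome X (135579238 to 135594503). It was at 15.7 and 14.7 FPKM in K700E_induced, 18.7 and 12.9 in K700E_uninduced, 18.4 and 22.0 in WT_induced and 19.5 and 14.7 in WT_uninduced. K700E_induced lay below WT_induced and the other groups overlapped. All of it came from NM_014500, with NM_001163280 listed at 0 in all libraries and no assembled form, so its level does not rest on a division among forms. Its log2 fold change on K700E induction was -0.03 (SE 0.44).

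RBM17, an alternative splicing factor with a U2AF homology motif that can bind SF3B1, lies on the plus strand of chromosome 10 (6130949 to 6159422). It was at 30.8 and 13.6 FPKM in K700E_induced, 24.7 and 48.9 in K700E_uninduced, 16.4 and 20.5 in WT_induced and 18.6 and 21.7 in WT_uninduced. The high value of 48.9 rests on assembled fragments, which held 83.4% of RBM17 in that library. With the length-weighted sum both K700E_uninduced libraries were near 15.8 (15.8 and 15.7 FPKM). The log2 fold change on K700E induction was -0.75 (SE 0.53) with the sum and 0.21 (SE 0.45) with the length-weighted sum, and K700E_uninduced differed from WT_uninduced by 0.78 (SE 0.53) and -0.18. No direction can therefore be read for RBM17. A further fragment of 298 nt, at 93.9 FPKM in WT_induced replicate 1, fell under the length minimum of 300 nt for assembled transcripts.

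SUGP1, the G-patch protein whose contact with SF3B1 the K700E change is known to weaken, lies on the minus strand of chromosome 19 (19387322 to 19431321). It was at 11.4 and 18.1 FPKM in K700E_induced, 14.04 and 9.79 in K700E_uninduced, 17.0 and 21.1 in WT_induced and 5.71 and 27.0 in WT_uninduced. The lowest and the highest library, 4.73 times apart, were the replicates of WT_uninduced. The log2 fold change was 0.28 (SE 0.72) on K700E induction and 0.57 (SE 0.72) on WT induction. In K700E_induced replicate 2 all of SUGP1 was given to an assembled form with 11 introns and none to the reference form. The sum with reference transcripts alone turned the K700E value to -2.33.

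GPATCH8, a G-patch protein reported to act against SUGP1 in cells with mutant SF3B1, lies on the minus strand of chromosome 17 (42472645 to 42580957). It was at 14.7 and 12.5 FPKM in K700E_induced, 13.004 and 10.97 in K700E_uninduced, 13.1 and 16.1 in WT_induced and 9.98 and 16.5 in WT_uninduced. The groups overlapped and the log2 fold change on K700E induction was 0.18 (SE 0.49). In K700E_induced replicate 2 an extra exon of 18 nt, known from the reference form NR_036474, took 69.2% of the FPKM from its donor, while it was listed at 0 in the other K700E_induced library. It is printed as the smallest exon in the acceptor test of these genes, in capitals between 20 bases of each neighbouring exon.
GPATCH8 exon, chr17:42544465-42544482, minus strand: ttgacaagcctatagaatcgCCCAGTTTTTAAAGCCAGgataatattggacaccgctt

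CHERP, a U2-associated protein that works with RBM17, lies on the minus strand of chromosome 19 (16628700 to 16653263). It was at 107 and 68.3 FPKM in K700E_induced, 32.4 and 39.1 in K700E_uninduced, 29.2 and 42.0 in WT_induced and 46.1 and 31.7 in WT_uninduced. Both K700E_induced libraries were above the other 6. The mean was 87.7 ± 27.6 FPKM (SD, n = 2) against 35.8 ± 4.77 (SD, n = 2) in K700E_uninduced, a log2 fold change of 1.25 (SE 0.39). limma gave an unadjusted p of 0.013 and an adjusted p of 0.973, so CHERP did not pass either.

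The high CHERP values rest on partial assembled forms, a different one in each library. In K700E_induced replicate 1 a form with 5 introns, 1458 nt long, was at 61.2 FPKM, and in replicate 2 a form with 10 introns, 2186 nt long, was at 34.7 FPKM. The reference transcript NM_006387 was at 46.1 and 33.6 FPKM in K700E_induced, 32.4 and 39.1 in K700E_uninduced, 29.2 and 42.0 in WT_induced and 46.1 and 18.2 in WT_uninduced. On the reference transcript alone the groups overlapped and the log2 fold change was 0.14. The length-weighted sum gave 67.8 and 52.1 FPKM in K700E_induced, still above the other 6 libraries, and a log2 fold change of 0.73 (SE 0.34) with a limma adjusted p of 1.

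CHERP overlaps C19orf44, on the opposite strand, over 3464 nt. The form with 5 introns has its 3′ end inside that overlap, at 16630823. The form with 10 introns has its 3′ end at 16633731, outside C19orf44, which ends at 16632163. C19orf44 was listed at 0 in both K700E_induced libraries and at 5.50 FPKM in WT_induced replicate 1 alone. None of the other 9 genes overlaps another gene. The part of the overlap in the CHERP values was not tested.

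**Figure D2:**
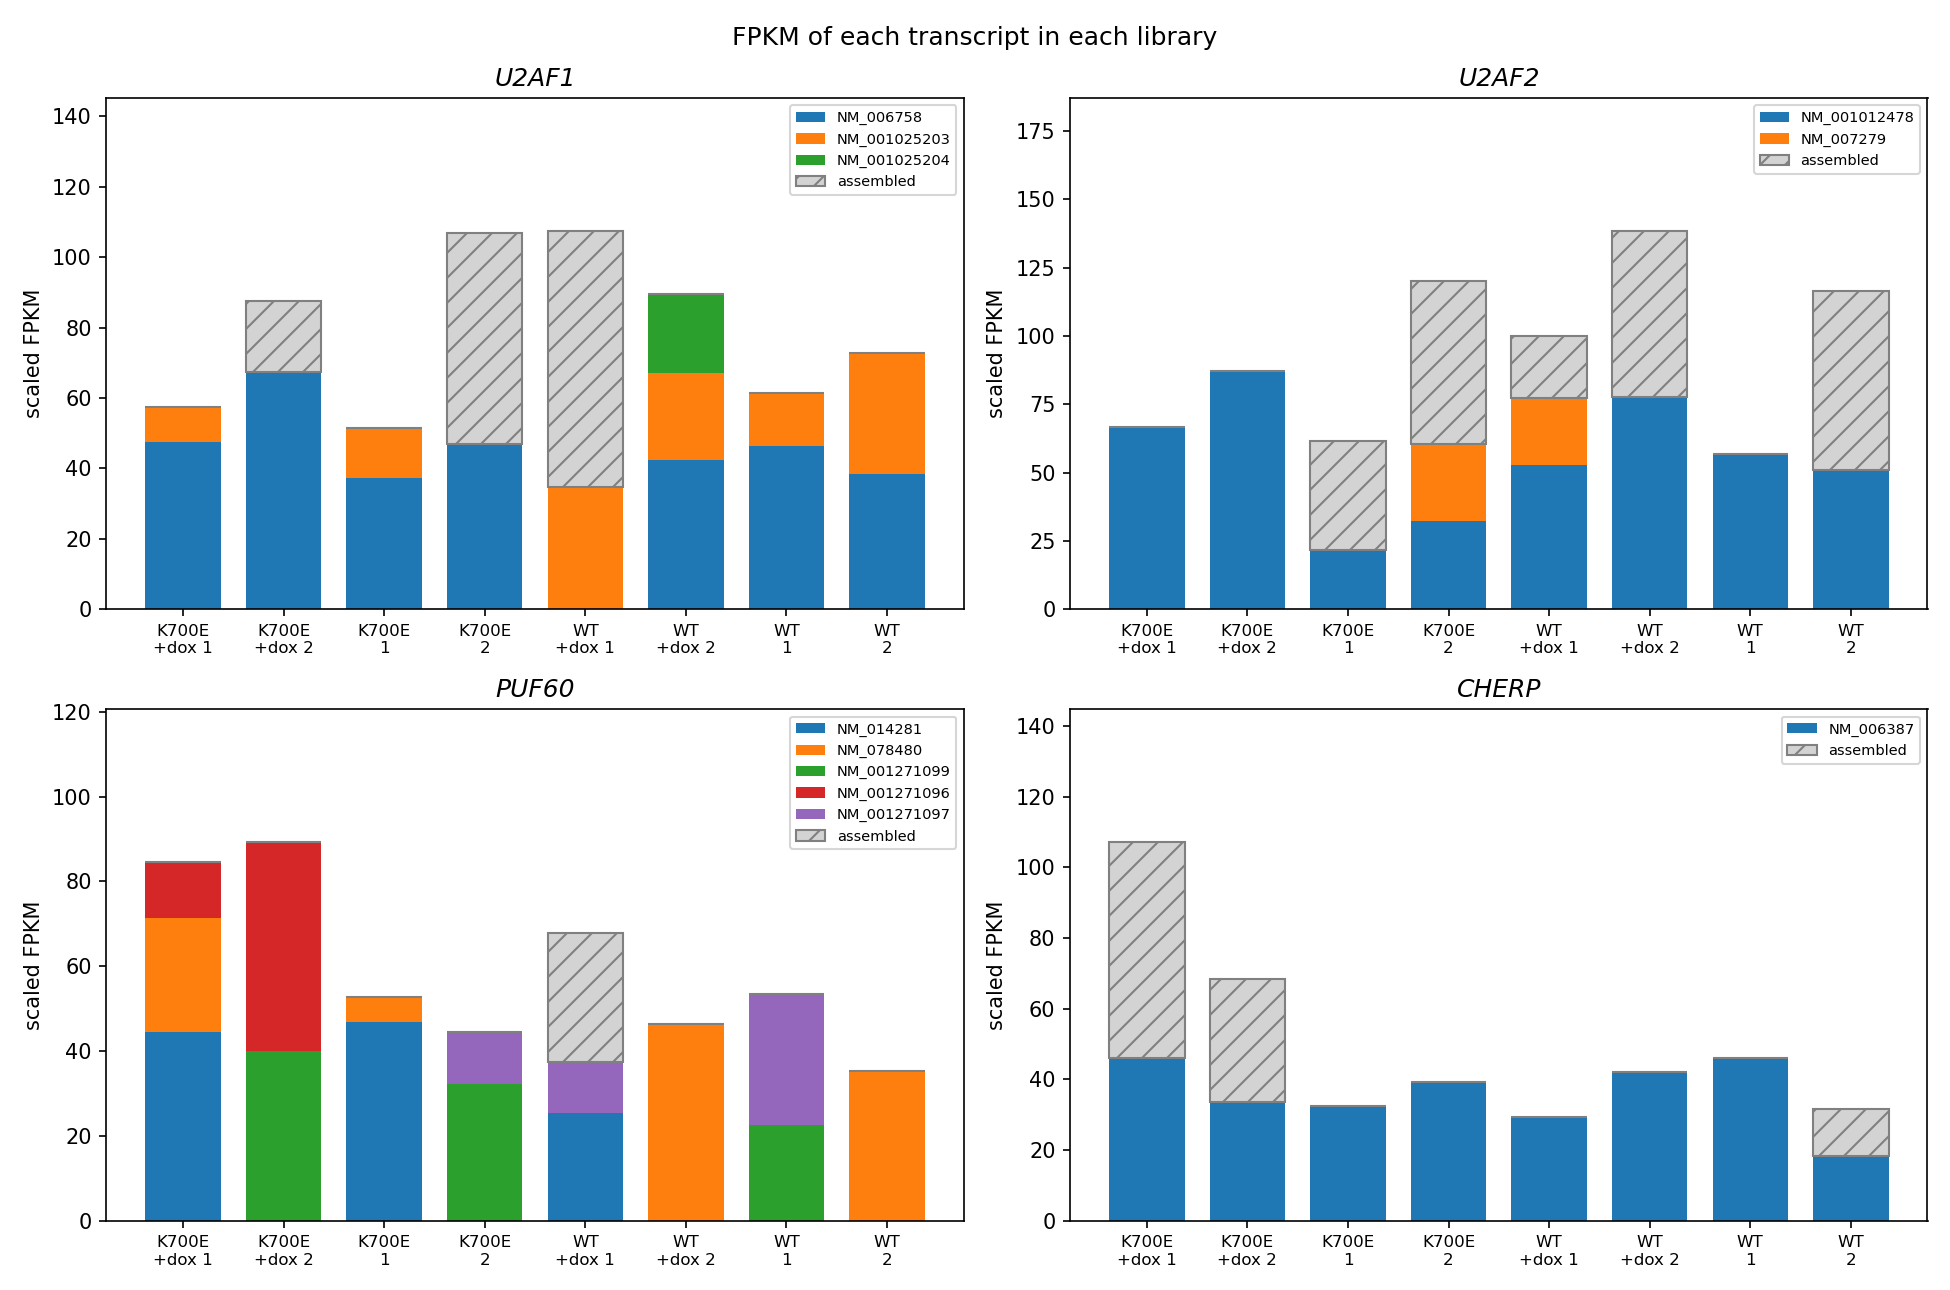
Scaled FPKM of each transcript of U2AF1, U2AF2, PUF60 and CHERP stacked in each library, with reference transcripts in colour, assembled ones hatched in grey, and +dox marking the doxycycline groups. The CHERP reference transcript stays between 18.2 and 46.1 FPKM while hatched forms make up the rest of both K700E_induced bars, and NM_001271096 of PUF60 appears in the K700E_induced bars alone.

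On induction of the K700E transgene none of the 10 genes passed. limma called 0 of 10 at an adjusted p of 0.05, against 0.0263% of all 11389 genes tested, and 2 of 10 (CHERP and PUF60) had an unadjusted p under 0.05, against 536 of all genes. Those 2 were also the only genes of the 10 whose K700E_induced libraries were both higher than both K700E_uninduced ones, which held for 16.1% of all genes, and none was lower, which held for 17.8%. Of the 10 log2 fold changes 5 lay above 0, with a median of 0.0089, beside 48.4% above 0 and a median of -0.011 over all genes. With the length-weighted sum 8 of 10 lay above 0. The same 2 genes had both K700E_induced libraries above all other 6, as did 3.75% of all genes, or 4.09% with the length-weighted sum. None of the 10 lay below all other 6, as did 3.58% of all genes (3.79% length-weighted). In bulk RNA, a change in every cell and a change in some of the cells cannot be told apart.

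**Figure D3:**
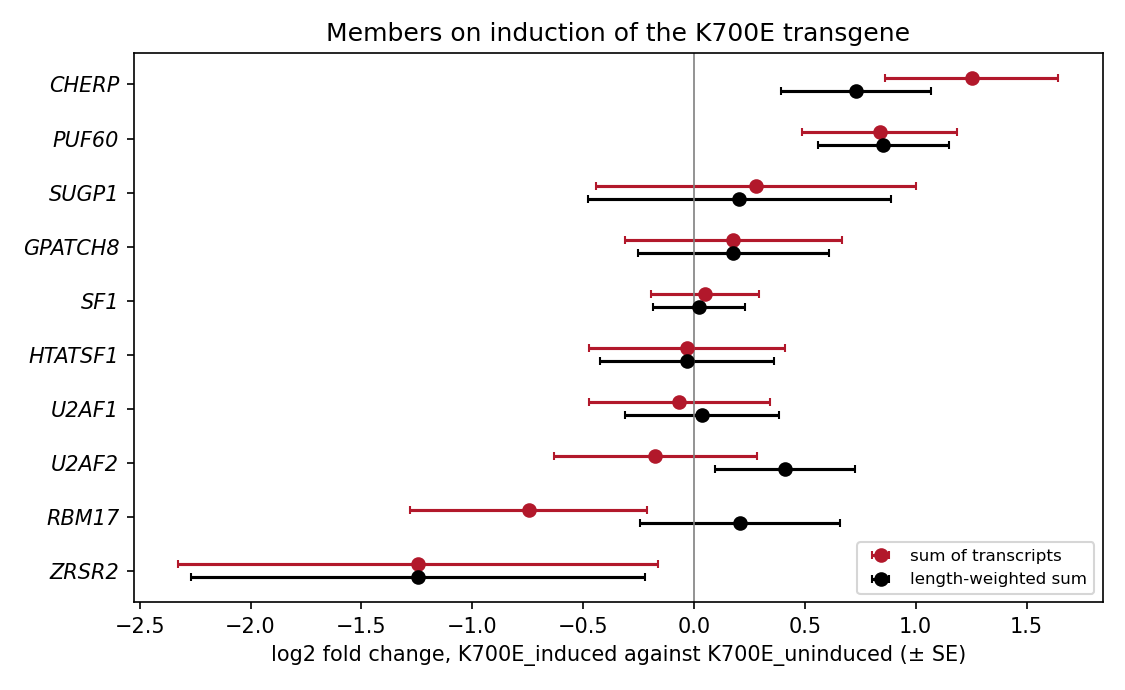
log2 fold change of each of the 10 genes between K700E_induced and K700E_uninduced, with bars of 1 SE from limma, for the sum over transcripts (red) and the length-weighted sum (black). CHERP (1.25 and 0.73) and PUF60 (0.84 and 0.85) are the points farthest above 0, and the 2 measures lie on opposite sides of 0 for RBM17, U2AF2 and U2AF1.

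On induction of the wild-type transgene limma called 0 of 10, against 0.0176% of all genes, and 0 of 10 had an unadjusted p under 0.05 (489 of all genes). SF1 and U2AF1 were higher in both WT_induced libraries than in both WT_uninduced ones (2 of 10), as were 15.1% of all genes, and none of the 10 was lower, as were 14% of all genes. With the length-weighted sum these were SF1 and U2AF2 (14.6% of all genes), and RBM17 was lower (13.9% of all genes). CHERP had a log2 fold change of -0.12 (SE 0.39). Of the 10 log2 fold changes 8 lay above 0, with a median of 0.30, beside 50.3% and a median of 0.0058 over all genes.

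Between the induced lines limma called 0 of 10, against 0.0351% of all genes. CHERP had the one unadjusted p under 0.05 (limma 0.012, adjusted 0.849; 597 of all genes), with a log2 difference of 1.27 (SE 0.39) of K700E_induced over WT_induced, or 0.75 with the length-weighted sum and 0.16 with reference transcripts alone. PUF60 differed by 0.63 (SE 0.35), or by 1.05 with reference transcripts alone. CHERP and PUF60 were higher in both K700E_induced libraries, as were 16.3% of all genes. U2AF1, U2AF2, SF1 and HTATSF1 were lower in both, as were 16.6% of all genes, with SUGP1 in place of U2AF1 under the length-weighted sum. This comparison shares libraries with both inductions, so the 3 sets of values are not independent. Of the 10 erythroid markers 9 lay above 0 here, with a median log2 difference of 0.42, beside 49.5% and a median of 0 over all genes. limma gave 0 of these 10 an unadjusted p under 0.05. Before induction 5 of 10 lay above 0 with a median of 0.02, beside 51.5% and 0.024 over all genes. There limma gave 1 of these 10 an unadjusted p under 0.05, HBG2 (0.025, adjusted 0.970). Its log2 difference was 1.05 before induction and 0.57 between the induced lines, so the erythroid markers were not shown to be alike before induction.

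Before induction limma called 0 of 10 between the lines, against 0.00878% of all genes, with 0 of 10 at an unadjusted p under 0.05 (527 of all genes). SF1 was higher in both K700E_uninduced libraries than in both WT_uninduced ones, by 0.38 (SE 0.24) on the log2 scale. RBM17 was higher by the sum and lower by the length-weighted sum. These were 2 of 10 genes, and 16.9% of all genes were higher in this way. The interaction, which asks whether induction acted differently in the lines, gave 0 calls of 10 by limma, against 0.0263% of all genes. CHERP had a value of 1.38 (SE 0.55) there, with an unadjusted p of 0.038 by limma (483 of all genes) and an adjusted p of 0.999. It was 0.85 with the length-weighted sum and -0.13 with reference transcripts alone.

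The 10 genes had 54 forms in all, 30 from the reference and 24 assembled, of which 23 were found in 1 library. Of the reference forms 5 were above 0 in all libraries and 7 were listed at 0 in all. In the test of transcript shares 33 forms entered, and limma called 0 of 33 in each of the 5 comparisons, as it called 0% of all 24616 transcripts. The SEs of these 33 ratios ran from 2.003 to 4.996 log2 units in the 4 pairwise comparisons, so the absence of calls does not show that shares were alike. Unadjusted p-values under 0.05 came from 6 of 33 forms in the K700E line, 2 in the WT line, 6 when the induced lines were compared, 1 before induction and 3 for the interaction. Over all transcripts the shares were 3.70%, 3.95%, 4.001%, 3.84% and 3.76%. Forms of the same gene share a total, so the counts are not of separate events. On K700E induction the 6 include NM_001012478 of U2AF2 (8.41) and its assembled form at the 3′ end (-6.33). They also include NM_006387 of CHERP and NM_032905 of RBM17, for which assembled forms were listed in only 1 of the groups compared. NM_001271096 of PUF60 was the only one of the 33 found in both K700E_induced libraries and at 0 in the other 6, a pattern of 0.496% of all transcripts. It entered the test through the K700E_induced libraries alone, so this pattern is no support for a difference. Of all transcripts tested 90.5% were at 0 in 1 library or more.

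Acceptors with a rival from the same donor numbered 10 in the test, in SF1, GPATCH8, U2AF2, U2AF1 and PUF60. limma called 0 of 10 in each comparison, as it called 0% of all 6997 acceptors. With SEs of 2.25 to 4.99 log2 units in the pairwise comparisons, this too says little on whether acceptor use was alike. An unadjusted p under 0.05 came from 1 acceptor on K700E induction and 1 in the comparison of induced lines, in both cases the downstream site of the PUF60 tandem, beside 4.62% and 4.76% of all acceptors. K700E_induced lay above the other 6 libraries for 2 of the 10, the downstream junction of U2AF1 and that PUF60 site, against 1.4% of all acceptors. It lay below them for 1 of 10, the upstream junction of U2AF1, against 0.429% of all acceptors. Acceptors whose donor had no FPKM in some library could not count towards the 1.4% and 0.429% but stay among the 6997. Both shares are therefore lower bounds. The PUF60 site was also the 1 acceptor of the 10 found in both K700E_induced libraries and at 0 in the other 6, against 0.786% of all. It entered the test through the K700E_induced libraries alone, so its place in these counts is no support for a difference. Both U2AF1 junctions share a donor, and K700E_induced lay outside the other 6 libraries there only with assembled forms counted. At least 1 library was at 0 for 8 of the 10 acceptors and for 96.7% of all.

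**Figure D4:**
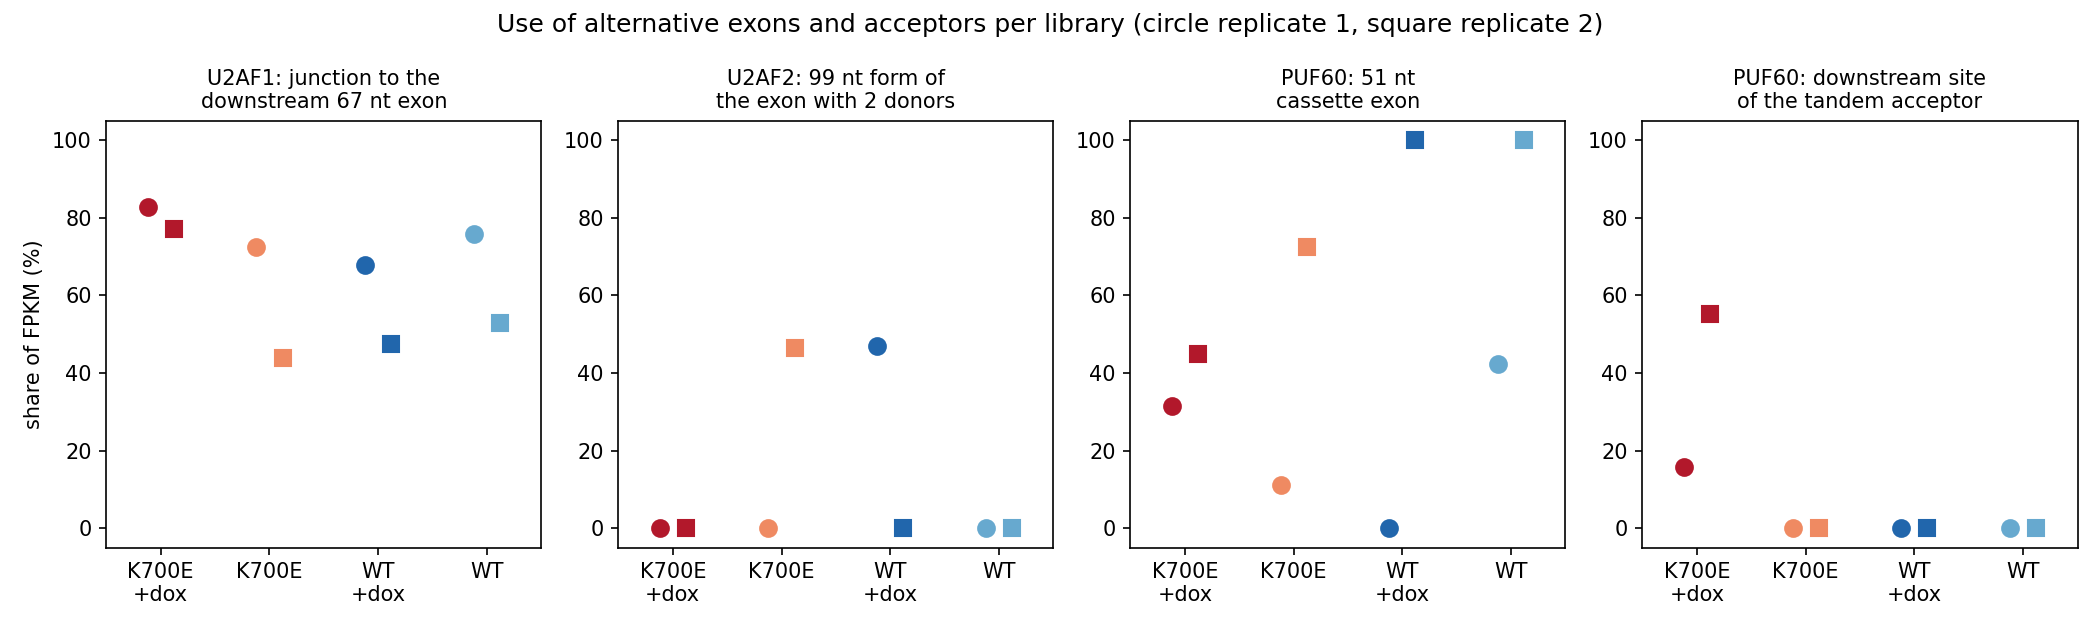
Share of FPKM in percent for 4 alternative events in each library, by group (+dox marks doxycycline; circles replicate 1, squares replicate 2). With assembled forms counted, the downstream junction of U2AF1 is at 82.8% and 77.1% in K700E_induced, above all other libraries. The downstream PUF60 acceptor is above 0 in the K700E_induced libraries alone, and the U2AF2 and PUF60 exon panels show values from 0% up within a group.

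Introns outside the reference numbered 6 in the 10 genes, 1 in U2AF1, 3 in U2AF2 and 2 in ZRSR2, and none of them was found in a K700E_induced library. The acceptor itself was outside the reference in 1 of the 6, the start of an exon of 60 nt in U2AF2 (56173137 to 56173196) at 60.9 FPKM in WT_induced replicate 2. Acceptors 10 to 30 nt upstream of a reference acceptor, the distance known for mutant SF3B1, numbered 0 in all 8 libraries. A form below the reach of the assembly would not be listed, so this was not detectable here and is not shown to be absent.

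Of 33 other genes that act at the branch point or acceptor, 32 could be tested (22 of the U2 particle and branch point recognition, 4 of 5 relatives of the 10 genes and 6 of the second splicing step). limma called 0 of 32 in each comparison. Their unadjusted p was under 0.05 for 0 genes in the K700E line, 3 in the WT line, 1 when the induced lines were compared, 1 before induction and 0 for the interaction, beside 4.71%, 4.29%, 5.24%, 4.63% and 4.24% of all genes. On K700E induction 12 lay above and 20 below 0, with a median log2 fold change of -0.08, beside 48.4% above 0 and a median of -0.011 over all genes. The highest were PRPF18, a second-step factor (1.998, SE 1.30), and SNRPA1, a U2 protein (0.85, SE 0.56). Among the lowest was DHX8, the helicase that releases the spliced RNA (-0.64, SE 0.66). PRPF18 was at 13.6 and 3.02 FPKM in K700E_induced and 5.73 and 0 in K700E_uninduced, so its replicates differed as much as its groups.

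As a description over the 8 libraries, the genes whose log2 level ran most like that of U2AF1 among 6230 genes were HCCS (Pearson r 0.933), NTMT1 (0.916) and GLI4 (0.889). For SUGP1 they were FGFRL1 (0.980), PMPCA (0.953) and CALR (0.935). All points share the same 8 libraries, and the highest of so many correlations over 8 points are high by selection.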

How the data were processed

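RNA was depleted of ribosomal RNA and sequenced, per the labels' protocols. The authors deposited 1 transcript list per library with FPKM for each transcript, with hg19 as the build and CASAVA, TopHat and Cufflinks as the tools, per the submitters' processing notes. No source used here gives their versions or settings. Each list gives FPKM, its interval and its coverage as text fields.

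The gene level summed scaled FPKM over reference transcripts and over assembled spliced transcripts of 300 nt or more that share most introns with the gene (ties left out). Scaling factors were median ratios over 7586 genes. Genes with a mean of 1 FPKM or more were fitted as log2(FPKM + 0.5) with limma 3.58.1 (trend, all 8 libraries) under R 4.3.3. Each of 5 comparisons had Benjamini-Hochberg adjustment over all features and a threshold of 0.05. Fold changes on this scale understate those of low genes. Transcript shares and acceptor use were fitted likewise as log2 ratios, for mean shares of 5% to 95%. The fits were tested on simulated data, where estimates were recovered but the transcript and acceptor fits made no calls. The gene fit called 10.4% of simulated log2 changes of 2, 62.7% of those of 4 and 90.9% of those of 8. Alternatives changed pseudocount, filter, scaling, transcripts summed, samples and spread model.

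The members and the lists of other genes were chosen with earlier results of these data known. Named were all 10 genes, their forms and acceptors in the tests (summarised by count where many), the 2 highest and 2 lowest of the other genes on K700E induction, and the 3 genes most like U2AF1 and SUGP1; 1 item this rule names is not reported here. Libraries were not treated as paired by replicate number, and pairing within a line is not excluded. Sequences were read from GENCODE transcripts (GRCh38), matched by RefSeq name and exon lengths for 27 of 30 reference transcripts; coordinates are those of the deposited lists on hg19. Tables were built with Python 3.11.15 and pandas 2.3.3, and figures with matplotlib 3.10.9.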

Additional observations from a re-analysis of the deposited data

How the results depend on the processing

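All 20 counts of called genes, transcripts and acceptors were 0 for the 10 genes and for the other acceptor genes, and were 0 in all 436 alternatives, which says nothing about stability, since the tests had little power. Of 32 log2 fold changes, 19 kept their sign in all alternatives; over all 32, 726 of 789 values kept it, and none passed the threshold. The lowest adjusted p was 0.185, for the share of PUF60 NM_001271096 without K700E_induced replicate 1, against 0.899 with all libraries. The library then left in the group is the one where this form was at 49.3 FPKM, and its spread is taken from the other groups, as in each fit that leaves out a library. With reference transcripts alone the log2 fold change on K700E induction turned to 0.34 for U2AF1, 1.06 for U2AF2, 1.11 for RBM17 and -2.33 for SUGP1; on WT induction it turned to -0.26 for U2AF1, 0.27 for CHERP and -0.062 for PUF60. The same setting gave -1.08 for RBM17 between the uninduced lines and -0.13 for the CHERP interaction. The length-weighted sum, added after the data were seen, turned K700E induction to 0.036 for U2AF1, 0.41 for U2AF2 and 0.21 for RBM17, and RBM17 between the uninduced lines to -0.18. These 2 settings drop or shrink the assembled forms by construction.

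Leaving out each library in turn, with either sum, gave on K700E induction -0.59 to 0.46 for U2AF1, -0.65 to 0.75 for U2AF2, -0.014 to 0.11 for SF1, -0.046 to 0.60 for SUGP1, -1.32 to 0.78 for RBM17 and -0.29 to 0.23 for HTATSF1. On WT induction it gave -0.50 to 1.65 for SUGP1, -0.39 to 0.15 for CHERP and -1.15 to 0.30 for the downstream junction of U2AF1, and between the uninduced lines -0.29 to 1.26 for RBM17. With the plain sum, values that kept their sign moved as well: ZRSR2 from -2.15 to -0.34, GPATCH8 from 0.059 to 0.29, PRPF18 from 0.18 to 3.82, SNRPA1 from 0.32 to 1.37 and the downstream junction of U2AF1 from 0.60 to 2.31 on K700E induction. U2AF2 went from 0.014 to 1.04 and PUF60 from 0.07 to 0.66 on WT induction, and PUF60 from 0.36 to 0.90 between the induced lines and from 0.18 to 0.77 in the interaction. Same-numbered libraries of different groups correlated at -0.03 to 0.08 over all genes in their deviations from the group means. So low a correlation does not exclude pairing within a line. The erythroid marker HBZ was at 2167 and 2456 FPKM in WT replicate 1 (with and without doxycycline) and at 876 and 916 in replicate 2. In the K700E line it was at 1404 and 1463 in replicate 1 and at 2366 and 2442 in replicate 2. Another of these markers, KLF1, did not run in this way. With the replicate number as a block (replicate block) the number called was 0 in all 5 comparisons and the log2 fold changes of CHERP and PUF60 on K700E induction were again 1.25 and 0.84 (limma adjusted p 0.987 for both). That block takes the same shift in both lines, so it does not cover pairing that runs differently in each line. With 2 libraries a group and reads divided by estimation, differences in gene level as large as 2 log2 units were mostly not detectable. The same held for even very large differences in transcript shares and acceptor use, and low genes such as ZRSR2 rest on little coverage.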
